A study of Mus musculus with 16 samples.

Results

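The 10 genes described here encode the ligands of transforming growth factor beta (Tgfb1, Tgfb2 and Tgfb3), the latent TGF-beta binding proteins (Ltbp1, Ltbp2, Ltbp3 and Ltbp4), the microfibril protein fibrillin (Fbn1) and the ligand-binding receptors (Tgfbr1 and Tgfbr2). They were chosen by name, are 10 of the 56953 genes in the count table, and all 10 passed the filter on low counts that kept 18662 genes for testing. The list was drawn up when earlier results of these data were known, in which Ltbp2 had already been named as far higher in mutant than in control hearts. Its values in those comparisons are therefore given as a description, with no test, and the other 9 genes are counted apart from it.

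Left ventricles came from 16 male and female Bl6J mice, 4 in each of 4 groups, and each mouse gave 1 library. They carried either no mutation (WT) or, on both alleles, the P635L substitution in RBM20, a splicing factor of heart muscle. Every mouse, controls included, received 1e12 viral genomes of AAV9 through a tail vein when 4 weeks old, and hearts were taken 12 weeks after that, at 16 weeks. The viral cargo was the cDNA of Tnpo3, a receptor that brings proteins into the nucleus, or the control pCAG-iCre-T2A-eGFP (Ctr), which expresses Cre recombinase and a green fluorescent protein from the CAG promoter, which is active in most cell types. Groups are named by genotype and virus: WT Ctr, WT Tnpo3 and, in mutants, P635L Ctr and P635L Tnpo3. Tnpo3 itself was at 41.6 to 49.4 CPM (the count scaled to the size of its library) in the 8 Ctr libraries and at 231 to 723 CPM in the 8 libraries with the Tnpo3 virus.

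TGF-beta is secreted as a latent complex, in which the ligand stays bound to its own propeptide and the propeptide is linked to an LTBP. LTBPs anchor the complex to fibrillin microfibrils in the extracellular matrix, from where integrins, thrombospondin and proteases can release the active ligand. The ligand binds the type II receptor, which phosphorylates the type I receptor, and Smad proteins carry the signal to the nucleus. In the heart the pathway is known for the activation of fibroblasts and for fibrosis.

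Library totals ran from 28493249 to 85922669 counts. A single unnamed gene, ENSMUSG00000119584, took over 10% of the counts in 3 WT libraries (WT Ctr replicates 2 and 4 and WT Tnpo3 replicate 4), and Xist exceeded Y-linked genes in 3 WT libraries (WT Ctr replicate 4 and WT Tnpo3 replicates 2 and 4) and in 0 of 8 P635L libraries. Which mouse was of which sex is not in the labels, so genotype and sex are partly tied together. The edgeR comparisons of the 10 genes were recomputed without these libraries; splicing events, levels per kb, shares and marker sums were not. P635L Ctr replicate 3 was the lowest of its group for 8 of the 10 genes, and P635L Tnpo3 replicate 4 was the highest of its group for 7 of the 10. The latter had the least Tnpo3 of its group, 234 CPM against 359, 723 and 543 CPM in replicates 1, 2 and 3. The part of the Tnpo3 level in these values was not tested. Values are CPM with TMM scaling, differences are log2 fold changes from edgeR's quasi-likelihood test with Benjamini-Hochberg adjustment over all 18662 genes, and a gene was called at an adjusted p under 0.05.

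**Figure D1:**
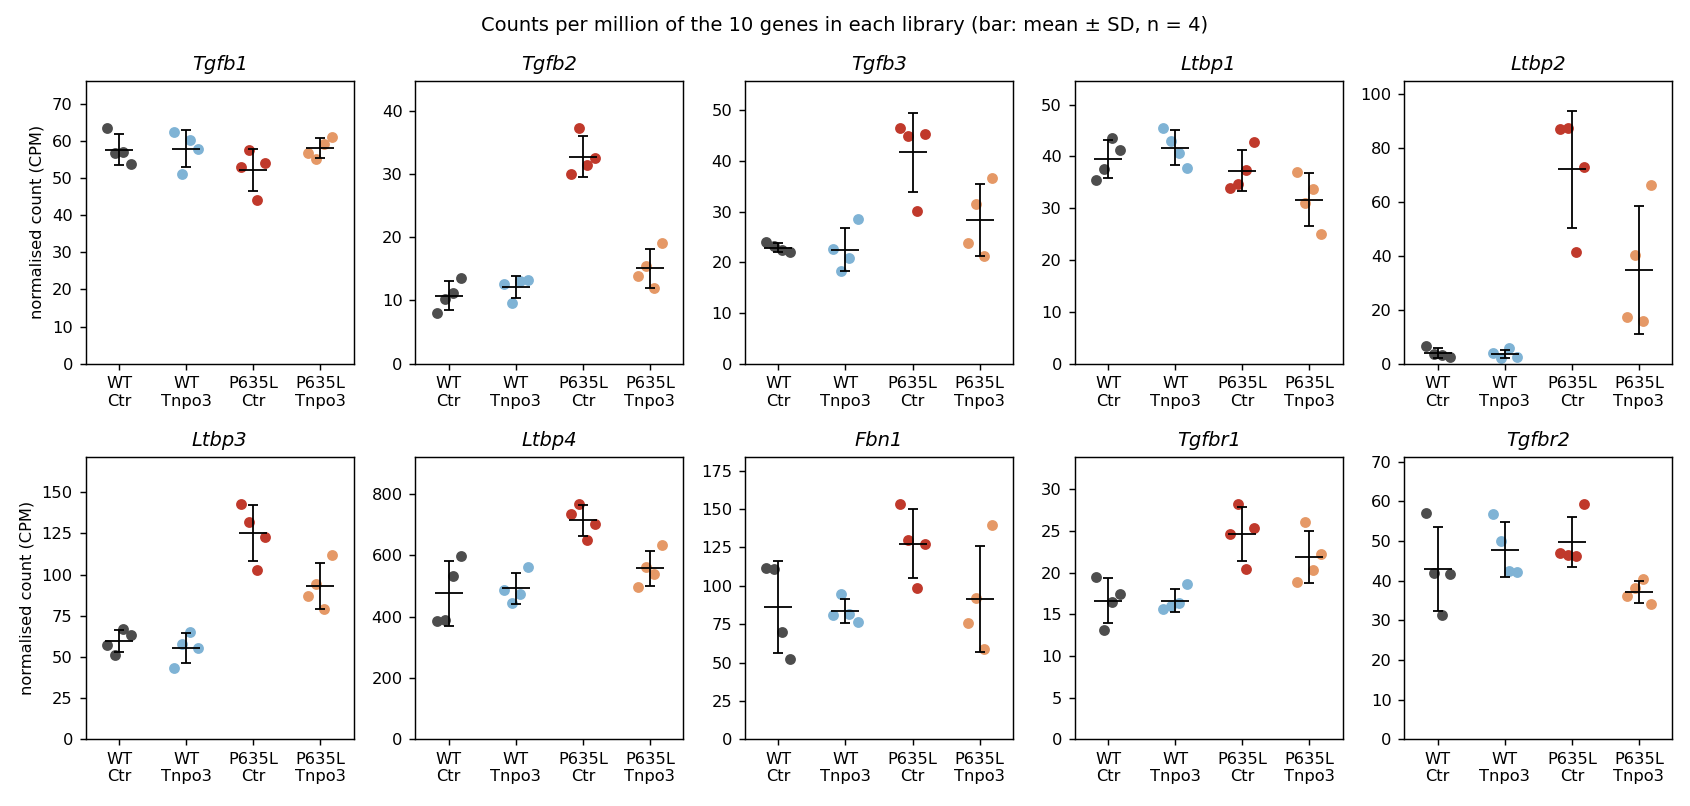
CPM (vertical axes, 1 panel per gene) of the 10 genes in each of the 16 libraries, by group, with the mean and SD of 4 libraries. The P635L Ctr libraries of Tgfb2 sit between 29.9 and 37.2 CPM, above all other groups, and those of Tgfb1 overlap every other group.

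Of the ligands, Tgfb2 and Tgfb3 were called higher in the mutant hearts and Tgfb1 was not. Tgfb2 (ENSMUSG00000039239, chromosome 1, 186354989 to 186438186, minus strand; all gene positions are GRCm39) was the ligand with the largest difference. Its level was 8.07, 10.3, 11.2 and 13.5 CPM in WT Ctr and 29.9, 37.2, 31.3 and 32.5 CPM in P635L Ctr. Every P635L Ctr library was thus above every WT Ctr library, and the means, 32.7 ± 3.17 against 10.8 ± 2.25 CPM (SD, n = 4 each), differed 3.04-fold. The log2 fold change was 1.60 (SE 0.16, edgeR adjusted p = 2.86e-06).

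Tgfb3 (ENSMUSG00000021253, chromosome 12, 86103519 to 86125815) was at 24.0, 23.2, 22.4 and 22.0 CPM in WT Ctr and at 46.5, 44.9, 30.2 and 45.3 CPM in P635L Ctr. The groups did not overlap although P635L Ctr replicate 3 lay well below the other 3 libraries. The log2 fold change was 0.87 (SE 0.17, edgeR adjusted p = 0.00225). Tgfb1 (ENSMUSG00000002603, chromosome 7, 25386427 to 25404502), the ligand most often studied in fibrosis, was at 63.4, 56.6, 56.9 and 53.6 CPM in WT Ctr and at 53.0, 57.4, 44.0 and 53.9 CPM in P635L Ctr. These ranges overlapped, and its log2 fold change of -0.15 did not pass the test (SE 0.10, edgeR adjusted p = 0.374).

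Among the storage proteins, Ltbp2 (ENSMUSG00000002020, chromosome 12, 84829986 to 84923306) covered the widest range of the 10 genes on the log2 scale. It was at 6.62, 3.59, 3.23 and 2.67 CPM in WT Ctr and at 87.3, 87.5, 41.3 and 72.9 CPM in P635L Ctr, a difference of 4.17 on the log2 scale (SE 0.52) between group means that stood 17.9-fold apart. LTBP2 differs from the other LTBPs in that it does not bind latent TGF-beta; it binds fibrillin microfibrils.

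The stretches just upstream of the transcription start are shown for Tgfb2, the ligand with the largest difference, and for Ltbp2, the gene with the widest range on the log2 scale. They are the 250 bases before the start in RefSeq (GRCm38.p6), at chr1:186705990-186706239 for Tgfb2 and chr12:84876492-84876741 for Ltbp2, both on the minus strand and written 5′ to 3′ along the gene. Capitals mark matches, on either strand, to 6 motifs. These were CAGACA, known from Smad binding, CACGTG, which basic helix-loop-helix proteins bind, TATAAA, the core promoter element, TGACTCA, bound by AP-1 proteins, TGACGTCA, bound by CREB proteins, and GGAATG, bound by TEAD proteins.
Tgfb2: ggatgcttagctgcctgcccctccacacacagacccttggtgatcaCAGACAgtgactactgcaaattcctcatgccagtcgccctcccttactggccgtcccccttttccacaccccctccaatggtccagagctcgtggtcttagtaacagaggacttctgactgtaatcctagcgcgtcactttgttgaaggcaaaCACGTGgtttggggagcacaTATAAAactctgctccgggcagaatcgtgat
Ltbp2: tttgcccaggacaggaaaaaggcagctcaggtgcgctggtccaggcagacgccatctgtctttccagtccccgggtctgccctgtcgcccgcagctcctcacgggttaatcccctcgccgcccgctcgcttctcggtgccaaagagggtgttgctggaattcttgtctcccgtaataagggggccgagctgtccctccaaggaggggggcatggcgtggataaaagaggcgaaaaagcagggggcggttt
The Tgfb2 stretch held CAGACA 204 bases, CACGTG 51 bases and TATAAA 31 bases before the start. Over 32851 promoters of the same length, 17.1% held CAGACA, 6.02% CACGTG and 12.4% TATAAA. The Ltbp2 stretch held none of the 6 motifs, of which TGACTCA was in 4.46%, TGACGTCA in 1.55% and GGAATG in 12.6% of promoters. These are matches of letters only.

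Ltbp3 (ENSMUSG00000024940, chromosome 19, 5790932 to 5808560), whose product binds latent TGF-beta, was at 57.5, 51.1, 66.8 and 63.4 CPM in WT Ctr and at 143, 132, 103 and 123 CPM in P635L Ctr. All 4 mutant libraries lay above all 4 controls, and the log2 difference was 1.07 (SE 0.14, edgeR adjusted p = 5.99e-05). Ltbp4 (ENSMUSG00000040488, chromosome 7, 27004561 to 27037117), which also takes part in elastic fibre assembly, was at 385, 388, 531 and 599 CPM in WT Ctr and at 735, 767, 649 and 702 CPM in P635L Ctr. Its groups did not overlap either, and the log2 fold change was 0.58 (SE 0.14, edgeR adjusted p = 0.0088).

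Ltbp1 and Fbn1 were not called. Ltbp1 (ENSMUSG00000001870, chromosome 17, 75312563 to 75699507) ranged from 35.5 to 43.6 CPM in WT Ctr and from 34.0 to 42.7 CPM in P635L Ctr (log2 fold change -0.09, SE 0.12, edgeR adjusted p = 0.682). Fbn1 (ENSMUSG00000027204, chromosome 2, 125142514 to 125349913) was at 112, 111, 69.8 and 52.1 CPM in WT Ctr and at 153, 130, 98.5 and 127 CPM in P635L Ctr. The groups overlapped, and the log2 fold change of 0.56 did not pass (SE 0.25, edgeR adjusted p = 0.155).

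Of the receptors, Tgfbr1 (ENSMUSG00000007613, chromosome 4, 47353222 to 47414931), the type I kinase, was at 19.5, 13.1, 16.6 and 17.5 CPM in WT Ctr and at 24.6, 28.3, 20.4 and 25.4 CPM in P635L Ctr. The groups did not overlap, and the log2 fold change was 0.57 (SE 0.14, edgeR adjusted p = 0.00817). Tgfbr2 (ENSMUSG00000032440, chromosome 9, 115913361 to 116004428), the type II kinase, ranged from 31.4 to 57.0 CPM in WT Ctr and from 46.2 to 59.4 CPM in P635L Ctr, and its log2 fold change of 0.21 did not pass (SE 0.15, edgeR adjusted p = 0.386).

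Between P635L Ctr and WT Ctr, 5 of the 9 genes other than Ltbp2 were therefore called higher (Tgfb2, Tgfb3, Ltbp3, Ltbp4 and Tgfbr1) and 0 lower; of all genes tested, 7.07% were called higher. These 5 were also those of the 9 whose groups did not overlap, against 9.71% of all genes with all P635L Ctr libraries higher. The median log2 fold change of the 10 genes was 0.57, that of all genes -0.049. The same 5 genes passed under each of the 18 alternatives tried, including those without the 3 libraries rich in ENSMUSG00000119584 and without the 3 with high Xist. In the authors' deposited table for this comparison the same 5 of the 9 pass.

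Markers of fibroblasts moved with these genes. All 7 of 7 fibroblast markers were called higher in P635L Ctr, and their summed level was 3680 to 5220 CPM there against 2300 to 2950 CPM in WT Ctr, a ratio of medians of 1.71. Of 6 markers of activated fibroblasts 3 were called higher, Postn, Meox1 and Comp, and 3 were not called. Means of the latter in P635L Ctr and WT Ctr were 86.3 and 104 CPM for Acta2, 6.79 and 6.55 for Fap and 0.313 and 0.247 for Cthrc1. The 6 had summed levels of 270 to 493 against 165 to 215 CPM. Of 5 markers of valve and tendon-like cells 4 were called higher, with sums of 75.9 to 173 against 8.35 to 26.1 CPM. Of 7 cardiomyocyte markers 2 were called lower and 5 were not called, and their sum was 45200 to 48000 against 62000 to 73900 CPM. No marker in these 4 lists was at 0 in all libraries, and the markers' part in the differences of the 10 genes was not tested. In bulk ventricle RNA more cells of a type and more RNA of a gene per cell cannot be told apart. Of 6 endothelial markers 0 were called by edgeR (1 at an unadjusted p under 0.05) and 0 by DESeq2. In the macrophage, mesothelial and pericyte lists 1 marker each was called lower (Cd68, Wt1 and Abcc9).

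**Figure D2:**
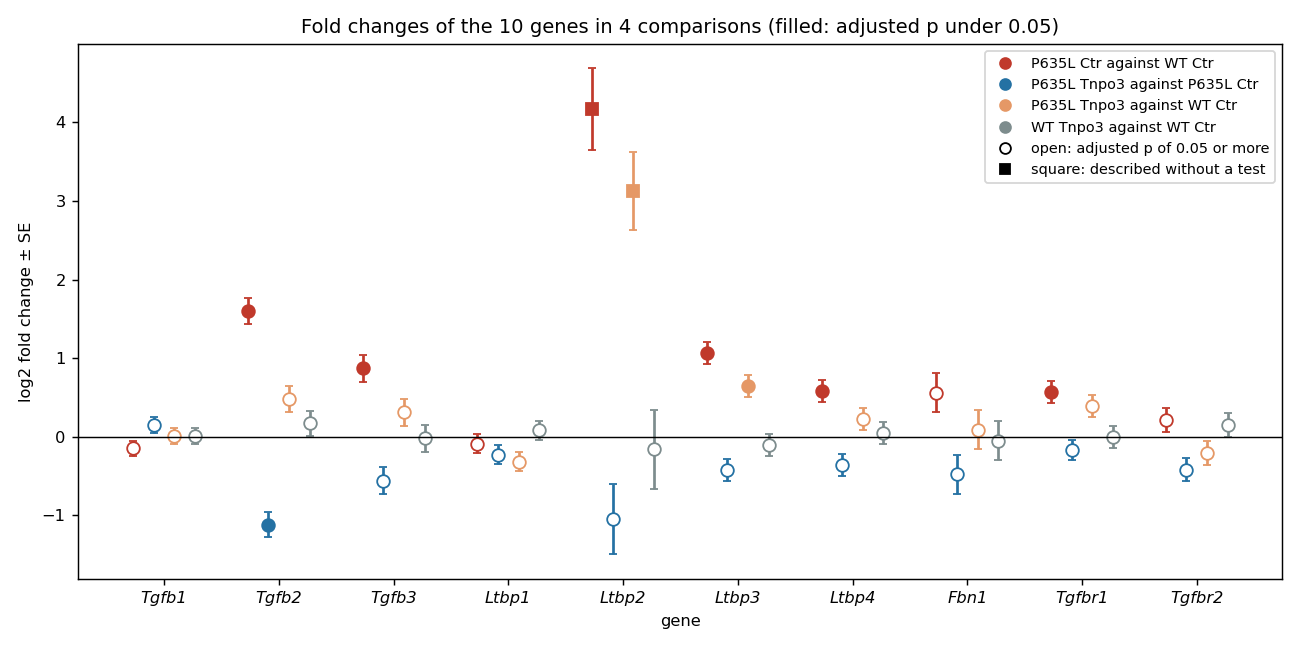
Log2 fold change with its SE (vertical axis) of the 10 genes (horizontal axis) in 4 comparisons, filled where the adjusted p was under 0.05; squares mark Ltbp2 where it is described without a test. Tgfb2 is filled for P635L Ctr against WT Ctr (1.60) and for P635L Tnpo3 against P635L Ctr (-1.12), and no gene is filled for WT Tnpo3 against WT Ctr.

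The Tnpo3 virus in mutant hearts was compared with the control virus in mutant hearts. Tgfb2 was at 13.8, 15.5, 11.9 and 19.2 CPM in P635L Tnpo3, so that each of the 4 libraries was below the lowest P635L Ctr library at 29.9 CPM. The mean of 15.1 ± 3.07 CPM (SD, n = 4) was 2.17-fold below that of P635L Ctr, and Tgfb2 fell by 1.12 on the log2 scale (SE 0.16, edgeR adjusted p = 0.000664). It was the 1 of the 10 genes that was called lower, where 2.25% of all genes were. The call held in 18 of 18 alternatives, with log2 fold changes from -1.26 to -1.02.

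The other ligand with a raised level in P635L Ctr, Tgfb3, was at 23.8, 31.4, 21.3 and 36.7 CPM in P635L Tnpo3. The 2 higher libraries overlapped the lowest P635L Ctr library at 30.2 CPM, and the log2 fold change of -0.56 did not pass (SE 0.17, edgeR adjusted p = 0.0775). It passed in 4 of 18 alternatives: with DESeq2, with a replicate block, without P635L Ctr replicate 3 and without P635L Tnpo3 replicate 4. Tgfb1 was at 56.7, 55.1, 59.0 and 61.1 CPM, and the log2 difference was 0.15 (SE 0.10, edgeR adjusted p = 0.456).

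Ltbp2 was at 17.2, 40.5, 15.8 and 66.3 CPM in P635L Tnpo3. This spread within the group reached into the P635L Ctr range, whose lowest library was at 41.3 CPM, and the log2 fold change of -1.05 did not pass (SE 0.45, edgeR adjusted p = 0.223). Without P635L Tnpo3 replicate 4, the library with the highest Ltbp2 and the least Tnpo3, it was -1.56 and still did not pass. Replicate 2, with the most Tnpo3 of the group at 723 CPM, had the next highest Ltbp2 at 40.5 CPM. Replicates 1 and 3, with 359 and 543 CPM of Tnpo3, had Ltbp2 at 17.2 and 15.8 CPM. In replicate 4 the summed markers of activated fibroblasts stood at 493 CPM, against 180, 286 and 170 CPM in the other libraries of its group. The part of these markers and of the Tnpo3 level in the Ltbp2 values was not tested.

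Ltbp3 was at 86.8, 94.3, 79.2 and 112 CPM in P635L Tnpo3, each above the highest WT Ctr library and 3 of them below the lowest P635L Ctr library (log2 fold change against P635L Ctr -0.43, SE 0.14, edgeR adjusted p = 0.107). Ltbp4 was at 495, 562, 540 and 633 CPM. Each was below the lowest P635L Ctr library at 649 CPM, yet the log2 fold change of -0.36 did not pass (SE 0.14, edgeR adjusted p = 0.18). Fbn1 was at 75.6, 91.8, 58.7 and 140 CPM, with its highest library again replicate 4, and was not called (log2 fold change -0.48, SE 0.25, edgeR adjusted p = 0.33).

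Tgfbr2 was at 36.1, 38.1, 40.4 and 34.1 CPM in P635L Tnpo3, each below the lowest P635L Ctr library at 46.2 CPM, a log2 difference of -0.42 (SE 0.15, edgeR adjusted p = 0.136). Tgfbr1 was at 18.9, 26.1, 20.4 and 22.3 CPM and overlapped P635L Ctr (log2 difference -0.17, SE 0.13, edgeR adjusted p = 0.544). The libraries of Tgfbr2 were thus separated here and those of Tgfbr1 were not, and neither receptor was called.

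In all, 9 of the 10 log2 fold changes between P635L Tnpo3 and P635L Ctr were negative. The median of the 10 was -0.42, against 0.007 over all genes. The groups did not overlap for 3 genes (Tgfb2, Ltbp4 and Tgfbr2), all 3 lower. Over all genes, 11% were lower without overlap, and 20.4% had no overlap in either direction. A fit on these 8 libraries alone called 4 (Tgfb2, Ltbp3, Ltbp4 and Tgfbr2), and it called 2846 of all genes in place of 724. Fibroblast markers were called lower in 6 of 7 cases, against 1 of the 10 genes in the main fit. The sum of these markers was 2640 to 3290 CPM in P635L Tnpo3. The sum of the valve and tendon-like markers was 21.9 to 65.7 CPM, below all P635L Ctr libraries, with 1 of 5 called lower. Sums of 2 other lists lay above all P635L Ctr libraries: macrophage markers at 260 to 432 against 172 to 236 CPM, with 0 of 6 called by edgeR (5 at an unadjusted p under 0.05) and 1 by DESeq2, and platelet markers at 24.6 to 42.6 against 17.6 to 22.5 CPM, with 1 of 4 called higher. Of the markers of activated fibroblasts 0 of 6 were called by edgeR (1 at an unadjusted p under 0.05) and 1 by DESeq2, and their sums of 170 to 493 CPM spanned both P635L Ctr and WT Ctr. The part of these markers in the differences was not tested.

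In WT hearts no difference between the Tnpo3 and the control virus exceeded the spread between mice for the 10 genes. Tgfb2 was at 12.6, 9.58, 13.1 and 13.2 CPM in WT Tnpo3, against up to 13.5 CPM in WT Ctr, and Ltbp2 was at 3.79, 2.27, 5.67 and 2.61 CPM. Log2 fold changes ran from -0.16 for Ltbp2 to 0.17 for Tgfb2, and the groups of all 10 genes overlapped, as did those of all but 1.09% of the genes tested. EdgeR called 0 of the 10 (0 at an unadjusted p under 0.05, smallest p of the model 0.322), as did DESeq2; of all genes, edgeR called 0.00536%, a single gene.

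Whether the virus acted differently in the 2 genotypes was tested as an interaction. Tgfb2 was the only one of the 10 genes called, with a value of -1.28 (SE 0.23, edgeR adjusted p = 0.0117), the log2 effect of the virus in P635L hearts minus that in WT hearts; 0.209% of all genes were called in that direction. The call held in 24 of 25 alternatives and was lost only at an adjusted p under 0.01. The next in size was Ltbp2 at -0.89 (SE 0.67, edgeR adjusted p = 0.612), which was not called, nor were Tgfbr2 at -0.58 (SE 0.21, edgeR adjusted p = 0.278) and Tgfb3 at -0.54 (SE 0.24, edgeR adjusted p = 0.378).

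Mutant hearts with the Tnpo3 virus were also set against WT Ctr, which shares libraries with the comparisons above. Ltbp3 was called higher, with a log2 difference of 0.64 (SE 0.14, edgeR adjusted p = 0.0178), where 1.49% of all genes were called higher. This call was lost in 4 of 18 alternatives, over which its adjusted p ran from 0.000658 to 0.101. They were those without the 3 libraries rich in ENSMUSG00000119584, at an adjusted p under 0.01, without WT Ctr replicate 2 and without P635L Tnpo3 replicate 4. Ltbp2 stood 3.13 higher on the log2 scale, given as a description, and its lowest P635L Tnpo3 library at 15.8 CPM lay above its highest WT Ctr library at 6.62 CPM. Tgfb2 at 0.48 (SE 0.16, edgeR adjusted p = 0.119), which passed only without the 3 libraries with high Xist (0.65, edgeR adjusted p = 0.0399), and Tgfbr1 at 0.39 (SE 0.14, edgeR adjusted p = 0.128) were not called.

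Against WT Tnpo3, the group with the same virus, Ltbp3 was higher by 0.75 on the log2 scale (SE 0.14, edgeR adjusted p = 0.00639), with 1.72% of all genes called higher. Ltbp2 stood 3.28 higher, again as a description, since the same P635L Tnpo3 libraries enter. Ltbp1 was at 37.0, 30.9, 33.8 and 25.0 CPM in P635L Tnpo3 and at 45.5, 43.0, 40.6 and 37.8 CPM in WT Tnpo3. The libraries did not overlap, yet the log2 fold change of -0.40 did not pass (SE 0.12, edgeR adjusted p = 0.0738). It passed in 3 of 18 alternatives: with DESeq2, with WT Tnpo3 replicate 4 left out and with the 3 libraries high in ENSMUSG00000119584 left out. The receptors did not overlap either. Tgfbr2 was lower, at 34.1 to 40.4 against 42.1 to 56.8 CPM (log2 fold change -0.36, edgeR adjusted p = 0.183), and Tgfbr1 higher, at 18.9 to 26.1 against 15.6 to 18.6 CPM (log2 fold change 0.40, edgeR adjusted p = 0.109), which passed once those 3 libraries were left out. Of the 9 genes other than Ltbp2, 2 were thus lower and 2 higher without overlap, as 5.7% and 5.79% of all genes were.

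**Figure D3:**
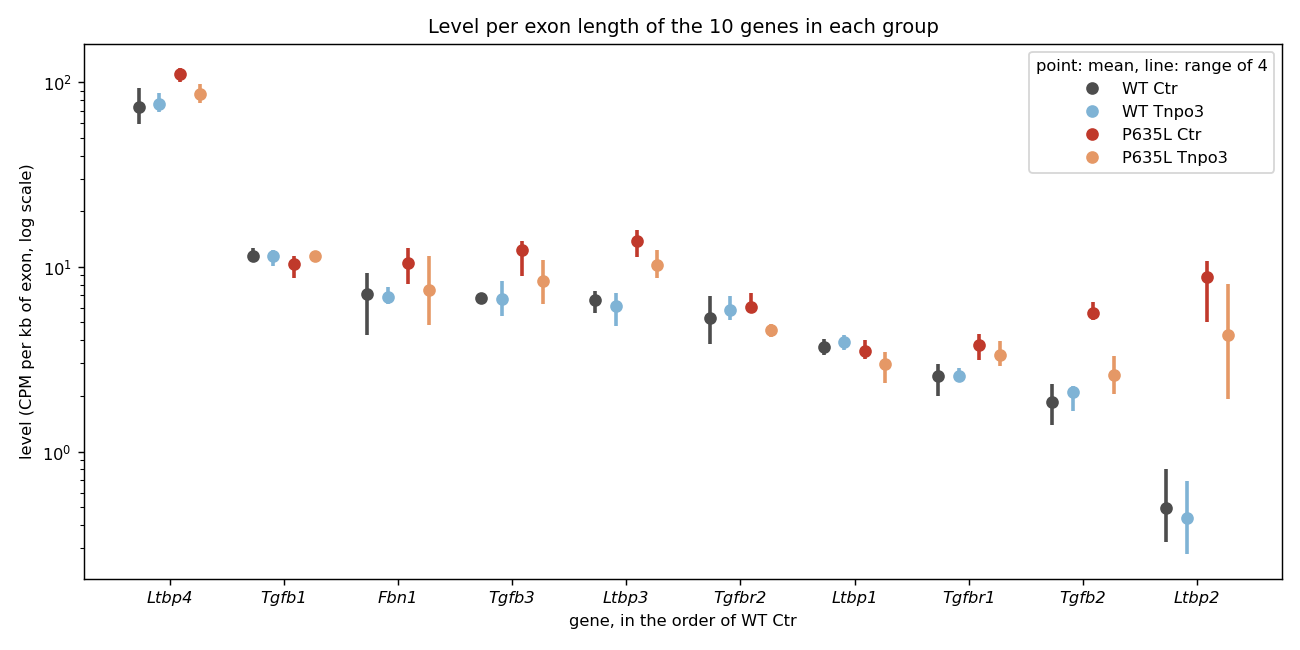
Level per kilobase of exon (vertical axis, log scale, CPM per kb) of the 10 genes in the order of WT Ctr, with the mean and the range of 4 libraries per group. Ltbp4 lies above all others in every group, and Ltbp2 is last in both WT groups and sixth of 10 in P635L Ctr.

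Levels of different genes were compared as CPM per kb of the exon length in the count table. Ltbp4 was the highest of the 10 in every group, with means from 73.6 CPM per kb in WT Ctr to 110 CPM per kb in P635L Ctr, and never overlapped the next gene. In WT Ctr the order went on with Tgfb1 at 11.4, Fbn1 at 7.11, Tgfb3 at 6.77, Ltbp3 at 6.58, Tgfbr2 at 5.25 and Ltbp1 at 3.70 CPM per kb. From Fbn1 to Ltbp1 each gene overlapped the next. Tgfbr1 at 2.55 and Tgfb2 at 1.86 overlapped each other, and Ltbp2 was lowest without overlap at 0.492 CPM per kb.

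In P635L Ctr the genes below Ltbp4 were less far apart. Ltbp3 at 13.8, Tgfb3 at 12.3, Fbn1 at 10.5, Tgfb1 at 10.3, Ltbp2 at 8.83, Tgfbr2 at 6.08 and Tgfb2 at 5.65 CPM per kb each overlapped their neighbour, and Ltbp1 came last at 3.48 CPM per kb. Ltbp2 had moved from the tenth place in WT Ctr to the sixth. In P635L Tnpo3 the lowest place was taken by Tgfb2 at 2.60 CPM per kb, with Ltbp2 at 4.27 CPM per kb and a range of 1.93 to 8.10.

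The mix of ligands is given as shares, without a test. Tgfb1 made up 57.0% ± 2.11 of the summed level per kb of the 3 ligands in WT Ctr, 56.9% ± 3.43 in WT Tnpo3, 36.6% ± 0.947 in P635L Ctr and 51.7% ± 5.74 in P635L Tnpo3 (SD, n = 4 each). The highest P635L Ctr library was at 37.9%, below the lowest of any other group at 46.2%. The share of Tgfb2 was 9.32% ± 2.21, 10.3% ± 0.598, 20.2% ± 2.55 and 11.5% ± 0.947 in the same order of groups. Tgfb1 was the most abundant ligand in every library of the other 3 groups, whereas in P635L Ctr the range of Tgfb3, 8.91 to 13.7 CPM per kb, overlapped that of Tgfb1, 8.72 to 11.4 CPM per kb. Among the storage proteins, Ltbp4 made up 75.2% to 81.3% of the summed level per kb in all 4 groups, while Ltbp2 went from 0.569% ± 0.319 in WT Ctr to 5.92% ± 1.36 in P635L Ctr.

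Some of these genes share exon bases with a gene on the opposite strand, and whether strand was used in counting is not stated. The share was 20.1% of exon bases for Fbn1, 12.4% for Tgfb3, 9.34% for Ltbp2 and 2.14% for Tgfb2, and 0 for Tgfb1, Ltbp1, Ltbp4, Tgfbr1 and Tgfbr2. The partners of Fbn1, Ltbp2 and Tgfb2 that share exon bases had mean counts of 6.4, 6 and 3.1 per library, and both partners of Tgfb3 had at most 2.2.

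Splicing of the 10 genes was read from the authors' rMATS tables, which compare each other group with WT Ctr; rMATS estimates, from reads over exon junctions, the percentage of transcripts that include a stretch of exon. For P635L Ctr, 44 events fell in the 10 genes, and in 34 of them both groups reached the minimum, a mean of 10 junction reads per library. A single event was called (rMATS FDR under 0.05 and an inclusion difference of at least 0.1), against 2.52% of all events with that read minimum; 3 events had an rMATS p under 0.05. For P635L Tnpo3, 0 of 28 were called (2.12% of all events with the minimum), with 2 at an rMATS p under 0.05. For WT Tnpo3, 0 of 38 were called (0.941%), with 1 at an rMATS p under 0.05.

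The event called was an alternative 3′ splice site in Tgfb2 (exon at chromosome 1, 186362807 to 186362984 in GRCm39). The longer form of the exon has 178 bases, and the shorter form starts 115 bases later and has 63. The exon is coding and holds the end of the propeptide and the beginning of the mature ligand, and 115 is not a multiple of 3, so that a transcript without them has another reading frame past the junction. Its sequence, from the GENCODE M21 transcripts on GRCm38 (chr1:186630610-186630787, minus strand), is shown with the bases that the shorter form leaves out in lower case and those that both forms keep in capitals.
Tgfb2 exon: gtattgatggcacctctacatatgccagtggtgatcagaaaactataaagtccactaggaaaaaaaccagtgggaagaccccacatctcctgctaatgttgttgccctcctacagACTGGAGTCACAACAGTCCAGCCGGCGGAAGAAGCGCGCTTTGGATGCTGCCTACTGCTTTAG

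Reads for the shorter form were few in every group. Summed over 4 libraries there were 98 reads for the longer and 1 for the shorter form in WT Ctr, 92 and 2 in WT Tnpo3, 273 and 22 in P635L Ctr, and 82 and 2 in P635L Tnpo3. Inclusion of the 115 bases, corrected for form length by rMATS, was 100%, 100%, 100% and 93.3% in the 4 listed positions of WT Ctr and 82.6%, 80.3%, 93.7% and 90.7% in P635L Ctr, where the tables do not say which library is at which position. In P635L Ctr all 4 libraries held reads of the shorter form, but 1 of them lay just above the lowest WT Ctr library. The difference in means, 86.8% ± 6.4 against 98.3% ± 3.3 (SD, n = 4 each), was -0.115 as a fraction (the authors' deposited rMATS FDR = 0.000345).

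The 4 listed positions of P635L Tnpo3 had 100%, 100%, 100% and 90.0% inclusion, the first of them from 2 reads alone. Their mean was 10.7 percentage points above that of P635L Ctr, which did not pass a two-sided exact permutation test with 70 assignments (p = 0.0857, adjusted p = 0.429 over the 5 named events). The smallest p this design allows is 0.0286. The other 4 events compared in this way gave differences of 11.1 points for an Ltbp1 exon, 5.4 for an Ltbp3 intron, 1.6 for an Ltbp2 exon and 0.6 for a Tgfb1 exon (exact p = 0.257, 0.171, 0.714 and 1). Tgfb2 also has an 84-base exon that can be inserted, but WT Ctr had a mean of only 5.75 junction reads per library there, below the minimum.

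**Figure D4:**
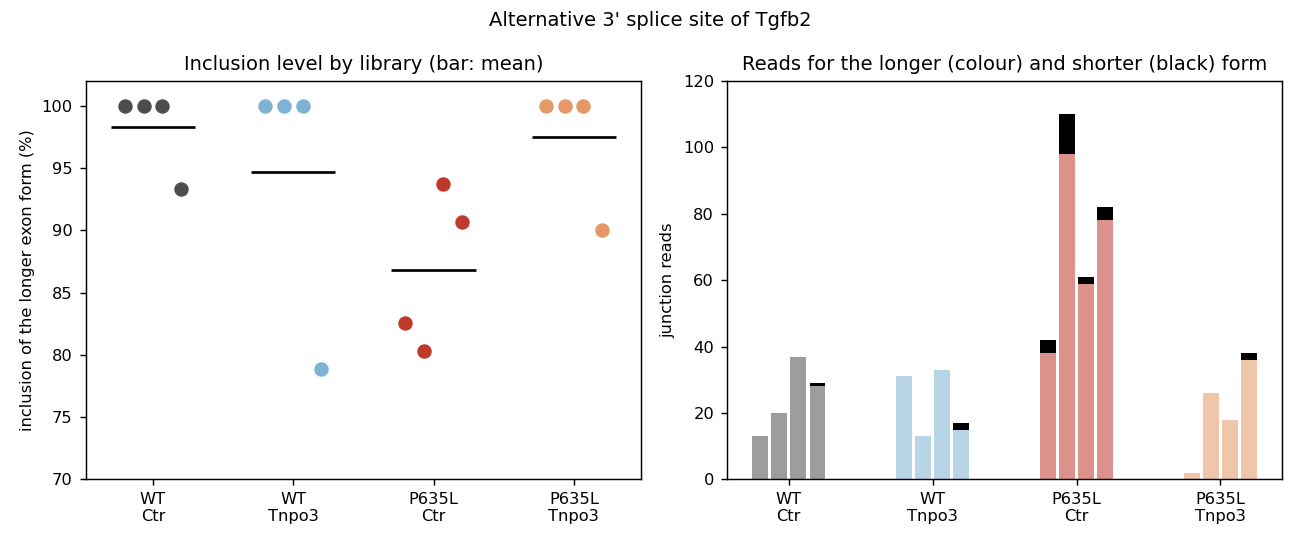
Inclusion of the longer exon form in percent (left, 1 point per library, bars are means) and junction reads of the longer (colour) and shorter (black) form (right, 1 bar per library) at the Tgfb2 alternative 3′ splice site, by group. P635L Ctr has 22 of the 27 reads of the shorter form, and its inclusion lies between 80.3% and 93.7%.

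Other genes of the pathway were taken by list. Of 86 such genes tested, 36 were called higher and 4 lower in P635L Ctr against WT Ctr, with a median log2 fold change of 0.46; of all genes, 7.07% were called higher and 7.14% lower. In P635L Tnpo3 against P635L Ctr 1 was called higher and 11 lower, with a median of -0.26, where 1.63% of all genes were called higher and 2.25% lower. The lists were drawn up with earlier results known.

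Among 15 tested genes that hold or activate the latent complex, 5 were called higher and 2 lower in P635L Ctr. Thbs1, whose product thrombospondin can activate latent TGF-beta, went from 4.66 ± 2.14 CPM in WT Ctr to 28.3 ± 11.5 CPM in P635L Ctr (SD, n = 4 each). Its log2 difference was 2.62 (edgeR adjusted p = 0.000957). In P635L Tnpo3 it was at 9.73 ± 5.16 CPM, and the log2 fold change of -1.54 against P635L Ctr did not pass (edgeR adjusted p = 0.0529). It passed in 5 of 18 alternatives, among them DESeq2 and the fits without P635L Ctr replicate 3 or without P635L Tnpo3 replicate 4. Itgb8, an integrin chain that binds latent TGF-beta, was higher by 1.15, and Mmp2, a matrix protease, by 1.06. Itgb6, another such integrin chain, fell by 0.62, and Nrros, which holds latent TGF-beta on myeloid cells, fell by 0.57. With the Tnpo3 virus in mutant hearts Mmp2 fell by 1.15 (edgeR adjusted p = 0.000952) and Nrros was 0.55 higher (edgeR adjusted p = 0.0285). The call of Itgb8 was lost without WT Ctr replicate 3 and that of Itgb6 without WT Ctr replicate 2; that of Nrros in P635L Tnpo3 was lost in 6 of 18 alternatives, among them without P635L Ctr replicate 2, 3 or 4 and without P635L Tnpo3 replicate 2 or 3.

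Of 9 co-receptors and other type I and type II receptors, Acvr1 (0.46, edgeR adjusted p = 0.0416) and Bmpr1a (0.45, edgeR adjusted p = 0.0348), both type I receptors for bone morphogenetic proteins, were called higher in P635L Ctr. The call was lost in 12 of 18 alternatives for Acvr1, each single library left out among them, and in 7 of 18 for Bmpr1a, where 6 of the 8 single libraries lost it. Bmpr1a fell by 0.57 with the Tnpo3 virus in mutant hearts (edgeR adjusted p = 0.0262), a call lost in 5 of 18 alternatives, among them without P635L Ctr replicate 2 or 4 and without P635L Tnpo3 replicate 3 or 4. Of the 7 Smads, which carry the signal or, as Smad6 and Smad7, dampen it, 0 were called in either comparison by edgeR or DESeq2, with 2 at an unadjusted p under 0.05 in each. Those 2, named after their values were seen, were Smad6 (0.36 and -0.50) and Smad7 (0.51 and -0.49, log2 fold change in P635L Ctr against WT Ctr and in P635L Tnpo3 against P635L Ctr).

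Inhibitors of the pathway were called higher in 7 of 12 cases and lower in 0 in P635L Ctr. Fstl3, which binds activins, was higher by 1.78 and Bgn (biglycan), a matrix proteoglycan, by 1.40. Bambi, a receptor decoy, was higher by 0.78. With the Tnpo3 virus in mutant hearts 4 of the 12 were called lower. Fstl3 fell by 1.53 and Bambi by 1.06 (edgeR adjusted p = 0.00532 for both), and Bgn fell by 0.83 (edgeR adjusted p = 0.0295), a call lost in 9 of 18 alternatives. The fourth, Dcn, and Bgn are also made in quantity by fibroblasts, and Dcn is one of the 7 fibroblast markers above.

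Of 18 tested genes listed here as responsive to TGF-beta, 7 were called higher and 1 lower in P635L Ctr. Cilp, a matrix protein, was higher by 3.21, and Ccn2, a secreted matricellular protein, rose from 39.4 ± 23.4 CPM in WT Ctr to 267 ± 81.1 CPM in P635L Ctr (SD, n = 4 each), or by 2.76 on the log2 scale (edgeR adjusted p = 0.000538). The gene that fell, Itgb1bp2 (log2 fold change -0.70), encodes melusin, a chaperone of striated muscle, and not a matrix product. In P635L Tnpo3, Ccn2 was at 92.7 ± 47.6 CPM and its log2 fold change of -1.53 against P635L Ctr did not pass (edgeR adjusted p = 0.0528). It passed in 4 of 18 alternatives, among them DESeq2 and the fits without P635L Ctr replicate 3 or without P635L Tnpo3 replicate 4. The 1 gene of this list called lower was Col1a1, a fibrillar collagen (-0.86, edgeR adjusted p = 0.0496), and 13 of 18 alternatives lost that call. Col1a1 is also one of the 7 fibroblast markers above, and Postn and Acta2 of this list are among the markers of activated fibroblasts.

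Microfibril and elastic fibre genes, the neighbours of LTBPs and fibrillin in the matrix, had 11 of 16 called higher and 1 lower in P635L Ctr. Adamtsl2, whose product binds fibrillin and Ltbp1, rose from 19.2 ± 3.06 CPM in WT Ctr to 175 ± 47.4 CPM (SD, n = 4 each), or by 3.19 on the log2 scale (edgeR adjusted p = 1.97e-06), and was at 70.6 ± 31.2 CPM in P635L Tnpo3. Mfap4, a microfibril-associated protein, was higher by 2.71, while Efemp1, a fibulin, fell by 1.91. Against P635L Ctr, Adamtsl2 fell by 1.31 (edgeR adjusted p = 0.0129), Mfap4 by 1.30 (edgeR adjusted p = 0.0252) and Fbln5, a fibulin needed for elastic fibres, by 0.63 (edgeR adjusted p = 0.0221) in P635L Tnpo3. The calls of Adamtsl2, Mfap4 and Fbln5 were lost in 3, 9 and 7 of 18 alternatives. For Mfap4, Fbln5, Bgn and Col1a1 alike, leaving out any 1 of the 8 libraries other than P635L Ctr replicate 3 and P635L Tnpo3 replicate 4 lost the call.

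The other ligands of the superfamily had 4 of 9 called higher and 0 lower in P635L Ctr. Inhba, which encodes an activin subunit, rose from 2.82 ± 0.522 CPM to 9.82 ± 1.47 CPM (SD, n = 4 each), by 1.80 on the log2 scale (edgeR adjusted p = 0.000191), and Inhbb, the subunit of the other activin, was higher by 1.43 (edgeR adjusted p = 0.00891). With the Tnpo3 virus in mutant hearts Inhba fell by 1.28 (edgeR adjusted p = 0.0108). Apart from Tgfb2, the pathway genes with an interaction of virus and genotype were Mmp2 (-1.27, edgeR adjusted p = 0.0188) and Fbln5 (-0.99, edgeR adjusted p = 0.0411), calls that 6 and 14 of 25 alternatives lost. That of Mmp2 was lost without WT Ctr replicate 3, P635L Ctr replicate 4 or P635L Tnpo3 replicate 1 or 3, and that of Fbln5 without any 1 of 11 libraries.

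**Figure D5:**
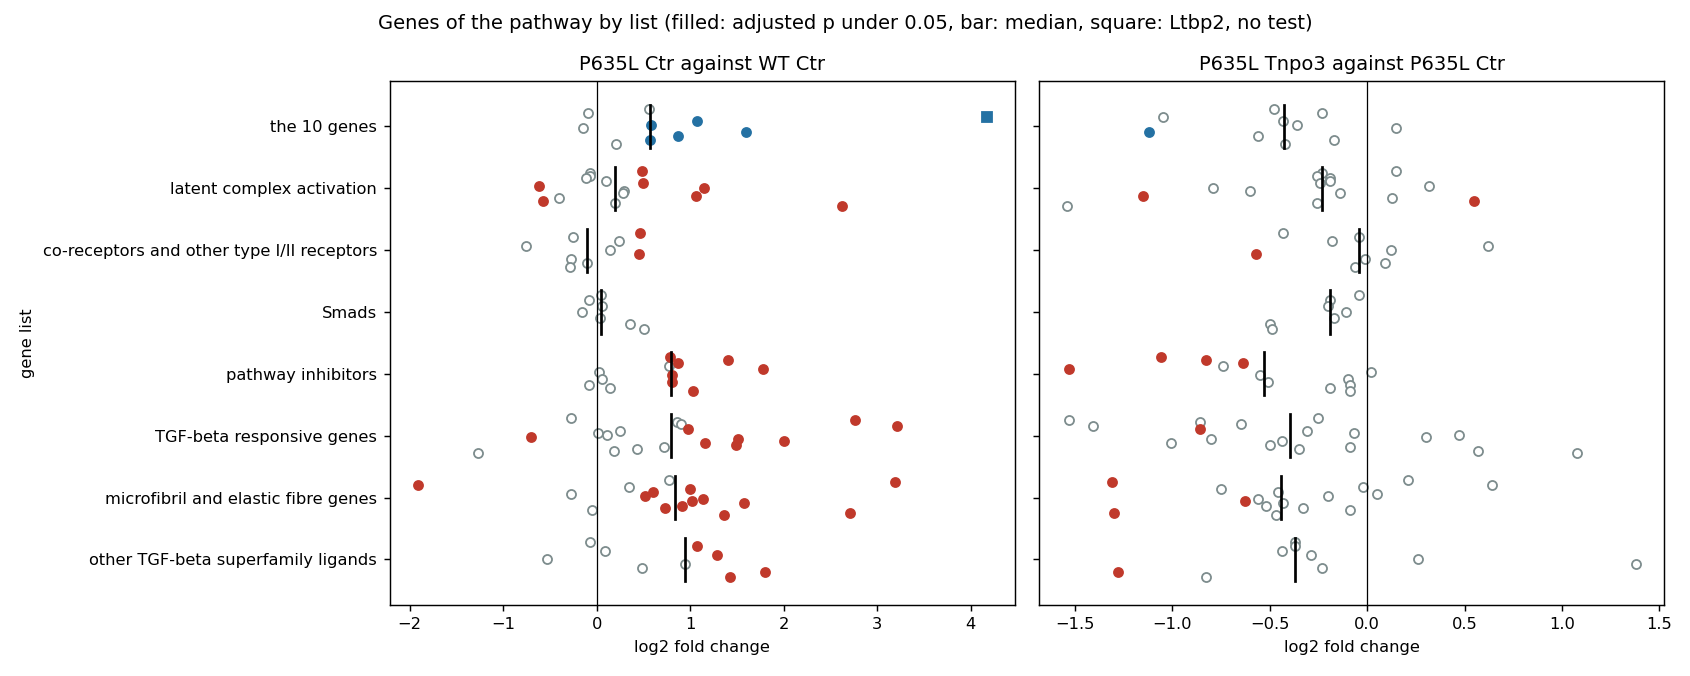
Log2 fold changes (horizontal axes) of the 10 genes (blue) and of each list of pathway genes (red where called), 1 point per gene, in P635L Ctr against WT Ctr (left) and P635L Tnpo3 against P635L Ctr (right), filled where the adjusted p was under 0.05, with the median of each list as a bar. The microfibril genes have 11 filled points to the right of 0 on the left panel, and the Smads have no filled point on either.

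Genes with the pattern most like that of a member were found by the root mean square difference of log2 CPM, centred on each gene's mean over the 16 libraries, among 12463 genes. The gene nearest to Tgfb2 was Enah, which encodes an actin regulator (difference 0.22, where Tgfb2 itself had an SD of 0.69). Enah was at 98.6 ± 10.7 CPM in WT Ctr, 101 ± 9.61 in WT Tnpo3, 259 ± 12.4 in P635L Ctr and 129 ± 31.2 in P635L Tnpo3 (SD, n = 4 each). Itprip (0.25) and Sertad4 (0.26) followed.

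Near to Ltbp2 were Nppa, the atrial natriuretic peptide gene (0.65), and Cilp (0.69). These distances are larger than for Tgfb2, but the SD of Ltbp2, 2.04, was larger too. S1pr2 (0.17), Dbn1 and Adamts2 (0.18 each) were nearest to Tgfb3, D630003M21Rik (0.12), Evc2 and Rab34 (0.16 each) to Ltbp3, Ptprd, Rab10os and Tcaf1 (0.13 each) to Ltbp4, and Farp1 (0.13), Slc39a13 and Zfp869 (0.14 each) to Tgfbr1.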

How the data were processed

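Poly(A) RNA of 16 left ventricles was sequenced with a stranded kit. The submitters' processing notes name STAR 2.7.9a, featureCounts 2.0.6, DESeq2 and the build GRCm39; whether the counting used strand is not stated. The authors deposited raw counts per gene, summed exon lengths, DESeq2 tables (mean normalized signal, log2 fold change, its SE, Wald score, p-value and adjusted p-value) and rMATS tables (junction reads, inclusion levels, inclusion difference as a score, p-value and FDR), each against WT Ctr. The rMATS version and settings are not given in the sources used here, nor is the order of libraries within a group.

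Here the counts were filtered with filterByExpr, scaled by TMM and fitted with edgeR 4.0.16 (robust quasi-likelihood test, a mean per group over all 16 libraries, R 4.3.3); p-values are two-sided, Benjamini-Hochberg adjusted over 18662 genes and called under 0.05. A splicing event was called where the rMATS FDR was under 0.05, inclusion differed by 0.1 or more, and each of the 2 groups had on average 10 junction reads per library. The members and lists were chosen with earlier results of these data known. All 10 members are named. From each pathway list the named genes are the 2 largest rises and the 2 largest falls called in P635L Ctr against WT Ctr, and up to 3 called in P635L Tnpo3 against P635L Ctr. Beside them are the 3 genes nearest in pattern to each of the 6 members past the threshold in any comparison. Ltbp2 is one of these 6, and its differences between mutant and WT hearts are described without a test. Also named is every splicing event called or, for a member without one, its event with the largest inclusion difference. Some items are not reported here. Gene symbols came from the splicing tables (11276 genes) and a names table (40786), and 4891 genes had none. Alternatives were median-ratio and upper-quartile scaling, no filter, DESeq2 1.42.0, a replicate block, a fit of the 2 groups compared, libraries left out, a term for high Xist, and an adjusted p under 0.01. The statistics were tested on simulated data. Library totals ran from 28493249 to 85922669 counts. Of the 10 genes Ltbp2 had the largest SE, 0.52 in P635L Ctr against WT Ctr and 0.45 in P635L Tnpo3 against P635L Ctr. Fbn1 came next with 0.25 in each, while Tgfb2, at fewer CPM than Fbn1, had 0.16 in each. The part of the level and of the spread between mice in these errors was not tested. RNA from the 2 sexes was not analysed apart.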

Additional observations from a re-analysis of the deposited data

Results flagged for a closer look

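For each gene and group the library farthest from the other 3 was tested against the critical value of Dixon's test, which chance exceeds in about 1 in 20 groups. With the 10 genes and the named pathway genes each tested in 4 groups, some libraries exceed it by chance alone. Among the 10 genes, Tgfb2 was low in WT Tnpo3 replicate 2 at 9.58 CPM, against 12.6 to 13.2 CPM in the other 3. Tgfb3 was low in P635L Ctr replicate 3 at 30.2 CPM, against 44.9 to 46.5 CPM. Tgfbr2 was high in P635L Ctr replicate 4 at 59.4 CPM, against 46.2 to 47.0 CPM. Inclusion at the alternative 3′ splice site of Tgfb2 stood apart at listed position 4 in 3 groups, at 93.3% in WT Ctr, 78.9% in WT Tnpo3 and 90.0% in P635L Tnpo3, with 100% at the other 3 positions of each. As 100% is the upper limit, any lower value would stand apart there, and these rest on 1, 2 and 2 reads of the shorter form.

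Of the pathway genes, Adamtsl2 was high in WT Tnpo3 replicate 2 at 28.7 CPM, against 16.7 to 18.8 CPM. P635L Ctr replicate 3 was low for Bgn at 505 CPM, against 817 to 861 CPM, and for Thbs1 at 11.1 CPM, against 33.7 to 34.5 CPM. In the same library the summed markers of activated fibroblasts were lowest of the group, 270 CPM against 406 to 493 CPM; their part in these values was not tested.

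An effect of the Tnpo3 virus that differed between the genotypes was called for 3 genes by the interaction term of edgeR's quasi-likelihood test. They were Tgfb2 (interaction -1.28 on the log2 scale, edgeR adjusted p = 0.0117), Mmp2 (-1.27, edgeR adjusted p = 0.0188) and Fbln5 (-0.99, edgeR adjusted p = 0.0411). The call of Tgfb2 held in 24 of 25 alternatives, and those of Mmp2 and Fbln5 were lost in 6 and 14 of 25.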

How the results depend on the processing

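The calls of Tgfb2, Tgfb3, Ltbp3, Ltbp4 and Tgfbr1 in P635L Ctr against WT Ctr kept their direction and their side of the threshold in all 18 alternatives. In P635L Tnpo3 against P635L Ctr 1 of the 10 genes was called, 2 with DESeq2, 4 in the fit of the 2 groups alone and 1 to 2 without single libraries. Against WT Ctr, Ltbp3 was called in P635L Tnpo3, counted apart from Ltbp2. That call was lost without the 3 libraries rich in ENSMUSG00000119584 and at an adjusted p under 0.01. It was also lost without WT Ctr replicate 2 or P635L Tnpo3 replicate 4. Without the 3 libraries with high Xist, Tgfb2 was called in addition. Against WT Tnpo3, Ltbp3 was called in all 18 alternatives. Without the 3 rich libraries, Ltbp1 and Tgfbr1 were called there in addition. Ltbp1 was also called there with DESeq2 and without WT Tnpo3 replicate 4. The interaction had 1 gene called, Tgfb2, and 0 at an adjusted p under 0.01. Requiring groups that do not overlap in place of the rMATS FDR left 0 splicing events in P635L Ctr. The causes were not tested.

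Same-numbered libraries of different groups did not deviate together throughout. Their correlations ran from -0.22 to 0.15 for replicate 1, -0.12 to 0.14 for replicate 2 and -0.1 to 0.26 for replicate 3. For replicate 4 they ran from -0.25 to 0.54. WT Ctr replicate 4 and WT Tnpo3 replicate 4 were both rich in ENSMUSG00000119584 (21.2% and 22.7%) and both had Xist above Y-linked genes. The numbers were not taken to pair mice. With the replicate block, 2 genes were called in P635L Tnpo3 against P635L Ctr, Tgfb2 and Tgfb3, and no other count of members moved.

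The log2 fold changes that turned sign were all of genes not called in that comparison. For WT Tnpo3 against WT Ctr, Tgfbr1 became 0.02 under median-ratio or upper-quartile scaling and DESeq2, 0.03 with no filter and 0.00 in the fit of the 2 groups, and Tgfb3 became 0.01 with no filter. Without the 3 rich libraries Tgfb1 was -0.02 there and in P635L Tnpo3 against WT Ctr. Without the 3 libraries with high Xist, Fbn1 was -0.05 in P635L Tnpo3 against WT Ctr, Ltbp2 0.12 in WT Tnpo3 against WT Ctr and Tgfb1 -0.07 in P635L Tnpo3 against WT Tnpo3. A term for high Xist gave Tgfb1 -0.03 in P635L Tnpo3 against WT Ctr, Ltbp2 0.01 and Fbn1 0.07 in WT Tnpo3 against WT Ctr, and Tgfb1 -0.07 and Fbn1 -0.04 in P635L Tnpo3 against WT Tnpo3. Leaving out single libraries, WT Tnpo3 against WT Ctr ran from -0.03 to 0.09 for Tgfb1, -0.15 to 0.10 for Tgfb3, -0.47 to 0.19 for Ltbp2, -0.04 to 0.18 for Ltbp4, -0.23 to 0.13 for Fbn1 and -0.07 to 0.08 for Tgfbr1. P635L Tnpo3 ran from -0.03 to 0.07 for Tgfb1 and -0.19 to 0.26 for Fbn1 against WT Ctr, and from -0.05 to 0.04 and -0.15 to 0.30 against WT Tnpo3. The Ltbp2 exon differed by 1.6 percentage points between P635L Tnpo3 and P635L Ctr, and by -0.2 to 2.6 without single listed positions, the lowest without position 3 of P635L Ctr, an alternative added after the data were seen.

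Over all genes, 2653 were called in P635L Ctr against WT Ctr (1354 to 3394 over the alternatives). In P635L Tnpo3 against P635L Ctr 724 were called (203 to 2846, the latter in the fit of the 2 groups, and 1388 with DESeq2), against WT Ctr 573 (209 to 1135, the latter with DESeq2) and against WT Tnpo3 694 (215 to 1887, the latter without the 3 rich libraries). WT Tnpo3 against WT Ctr had 1 (0 to 4), and the interaction 94 (23 to 414, the latter with DESeq2). The share of calls that were higher in P635L Tnpo3 against WT Ctr was 48.5%, 58.7% with upper-quartile scaling and 59% with no filter; that of the interaction was 58.5%, and 37.7% with DESeq2.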
